A study of Rattus norvegicus with 8 samples.

Results

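The transforming growth factor beta (TGF-beta) genes were followed in cirrhotic rat liver through 15 probe sets of 9 genes, out of 31042 probe sets tested on the array. They are the ligands Tgfb1, Tgfb2 and Tgfb3, the latency protein Ltbp1, the receptors Tgfbr1 and Tgfbr3, the signal transducers Smad3 and Smad7, and the TGF-beta-induced matrix protein Tgfbi. Probe sets were taken where the platform annotation lists exactly 1 gene symbol and that symbol is on the list. Of the 10 listed genes, Tgfbr2 was not analysed here, since no probe set was paired with it in the annotation used. The selection rule uses names and no measured value.

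The 8 arrays are labelled as livers of male Wistar rats made cirrhotic with inhaled carbon tetrachloride (CCl4), a hepatotoxin, while they drank water with 0.3 g/L phenobarbital. The 4 treated rats are labelled as given an antiangiogenic treatment and the 4 rats they are set against as given vehicle, although the series design calls these non-treated. Which agent was given, at what dose and to animals of what age is not stated in the labels. RNA of each liver went onto its own Affymetrix Rat2302 array, per the design. Values are log2 intensities, so that a difference of 1 is a doubling, and ± is an SD over 4 arrays.

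TGF-beta ligands are secreted with their own propeptide still wrapped around them, and latent TGF-beta binding proteins such as Ltbp1 tie this inactive complex to the matrix. Released ligand joins a type II and a type I receptor, the type I kinase phosphorylates Smad2 and Smad3, and these enter the nucleus with Smad4, while Smad7 blocks the receptor. In injured liver TGF-beta from macrophages, platelets and stellate cells is known for turning stellate cells into matrix-producing myofibroblasts.

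The arrays treated 3 and vehicle 4 were near copies of each other, which touches every value below. Across probe sets they correlated at r = 0.996, and the median absolute deviation between them, scaled as an SD, came to 0.166, while the 27 other pairs of arrays had 0.251 to 0.404. Whether both hold RNA of 1 liver is not settled by the labels and was not tested. If they do, the groups share an animal and do not hold 4 independent rats each, so SDs and intervals over all 8 arrays would not measure the spread between rats alone. Neither array was dropped or relabelled, and results are also given without this pair. By the same deviation over all probe sets, treated 4 was nearer to vehicle 1, 2 and 3 (0.261, 0.298 and 0.251) than to the treated arrays. From treated 1, 2 and 3 it stood at 0.362, 0.354 and 0.376. The spiked-in bacterial controls BioB and BioC place the arrays in 3 sets, treated 1 with vehicle 1, treated 3 with vehicle 4, and the remaining 4 arrays. BioB stood at 7.97, 8.08 and 7.81 on treated 1, 2 and 4, against 7.39, 7.52 and 7.43 on vehicle 1, 2 and 3. The near copies had 8.87 on treated 3 and 8.97 on vehicle 4. Without the near copies the level of this control thus runs with the groups, and its bearing on the differences was not tested. Array medians lay between 5.16 and 5.30, and the hepatocyte gene Alb, which marks the labelled tissue, stood between 14.79 and 14.85 in treated livers and between 14.81 and 14.85 in vehicle livers.

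No TGF-beta gene passed the test for a difference between the groups. Limma with Benjamini-Hochberg adjustment over all probe sets called 0 of 15 member probe sets at an adjusted p of 0.05, as it did 0 of all 31042 (0%). At an unadjusted p under 0.05 the count was 1 of 15, the Tgfb1 probe set, which was lower in treated livers. That rule took 3.93% of all probe sets, 2.04% in the lower and 1.89% in the higher direction. The groups were free of overlap at 0 of 15 member probe sets, against 1.67% of all. In whole liver, fewer cells of a type and less RNA per cell cannot be told apart.

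The largest differences among the members were in Tgfb1, Tgfb3 and Ltbp1, all with lower means in treated livers. Tgfb1 (1370082_at), the ligand most tied to fibrosis, stood at 5.13, 5.66, 5.40 and 6.16 in treated 1 to 4, against 6.54, 6.19, 6.44 and 5.87 in vehicle 1 to 4. Treated 4 lay above vehicle 4 and below the other vehicle arrays, so the groups overlapped only through this pair of values. The mean was 5.59 ± 0.44 in treated and 6.26 ± 0.30 in vehicle livers, a difference of −0.67 or 1.595-fold with a 95% interval from −1.20 to −0.15 (limma adjusted p = 0.979). Within the spike-in sets the Tgfb1 difference was −1.41 in the first, −0.41 in the set of 4 arrays and −0.47 between the near copies.

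Tgfb3 (1367859_at), a further ligand of the same receptors, stood at 5.82, 6.28, 6.13 and 7.79 in treated livers, against 8.06, 7.64, 7.65 and 6.20 in vehicle livers. The arrays fell into a high and a low set with nothing between 6.28 and 7.64, and in each group 1 array, treated 4 or vehicle 4, sat with the majority of the other group. The means were 6.504 ± 0.87 in treated and 7.39 ± 0.81 in vehicle livers (difference −0.88, 95% interval −2.003 to 0.24, limma adjusted p = 0.979). The Tgfb3 difference was −1.31 without treated 4 and −1.28 without vehicle 4, and −2.23, −0.61 and −0.07 within the 3 spike-in sets.

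Ltbp1 (1367912_at) showed the same layout of arrays. It stood at 7.74, 7.35, 7.36 and 8.91 in treated livers, against 9.13, 8.95, 9.03 and 7.28 in vehicle livers. Treated 4 lay just under vehicle 1 to 3, and vehicle 4 was the lowest of all 8 arrays. The difference was −0.75 (95% interval −1.83 to 0.32, limma adjusted p = 0.979), and it was −1.19 without vehicle 4. Within the spike-in sets it was −1.39, −0.86 and 0.09, the last between the near copies. The same high and low arrays were seen in genes outside the members, such as Ltbp4, Pdgfrb and Cygb, named after their values were seen.

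**Figure D1:**
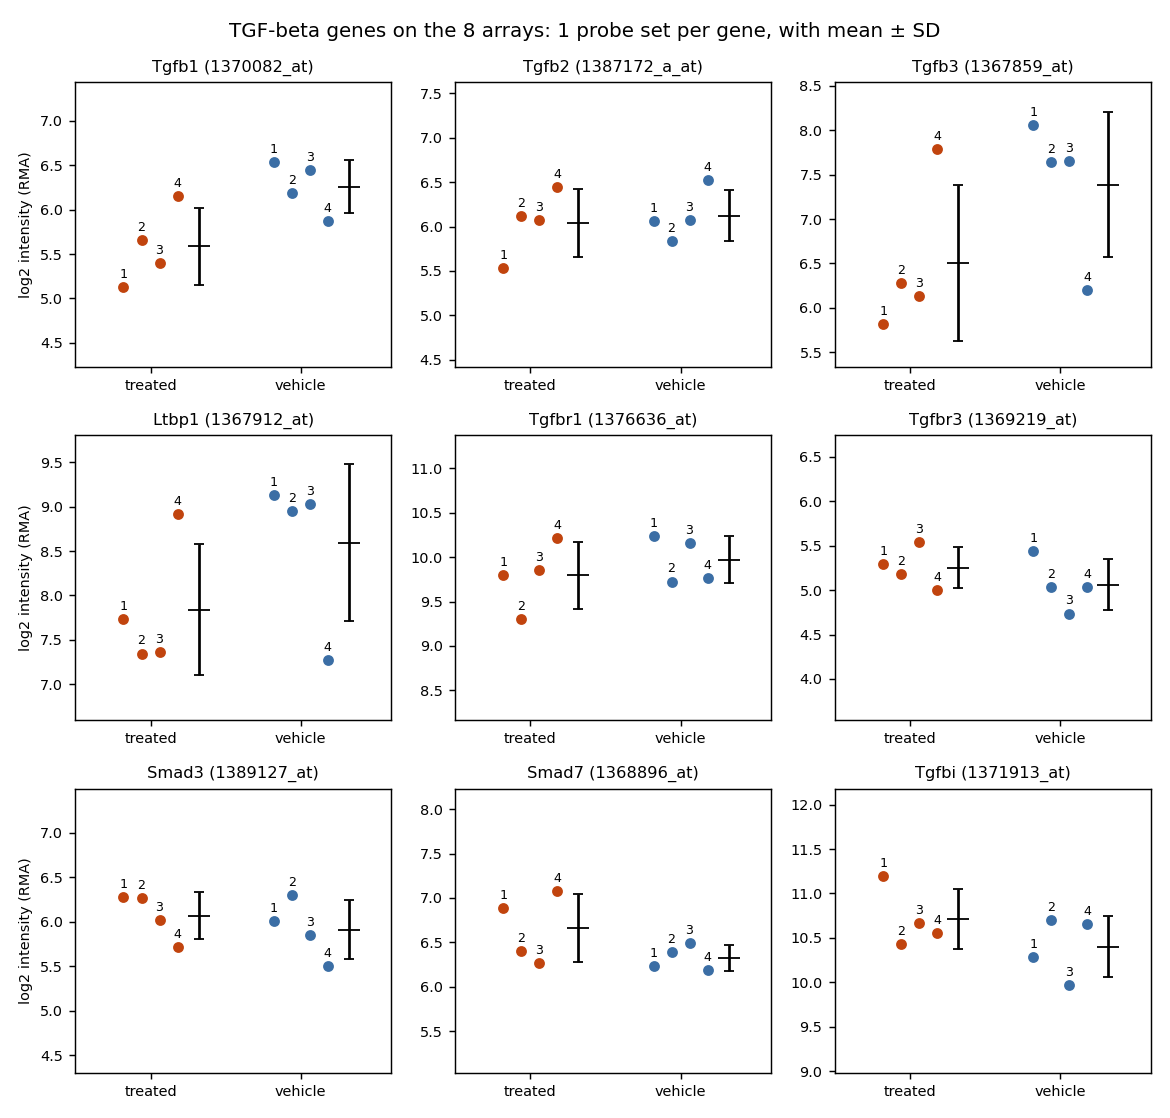
Log2 intensity (RMA) of the probe set with the highest mean for each of the 9 genes. Points are single arrays numbered by replicate, with treated livers on the left and vehicle livers on the right of each panel, and the bar beside them is the mean ± SD of 4 arrays. For Tgfb3 and Ltbp1, treated 4 sits with vehicle 1 to 3 and vehicle 4 with treated 1 to 3.

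Without the near copies the Tgfb1 difference was −0.74 (95% interval −1.37 to −0.11), that of Tgfb3 −1.15 (−2.30 to −0.01) and that of Ltbp1 −1.04 (−1.94 to −0.13). In this comparison of 3 treated with 3 vehicle livers these 3 probe sets, of 15, had an unadjusted p under 0.05 in the lower direction, as did 3.67% of all probe sets. None passed after adjustment (limma adjusted p = 0.743 for Tgfb1, 0.764 for Tgfb3 and 0.746 for Ltbp1), although 3 of 31042 probe sets (0.00966%) did. The near copies stand in opposite groups. Where their values are nearly equal, as for Tgfb3 and Ltbp1, leaving both out must keep the sign and enlarge the difference. The larger differences are thus no separate result. Tgfb1, Tgfb3 and Ltbp1 kept a lower mean in treated livers whichever of the 8 arrays was left out.

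**Figure D2:**
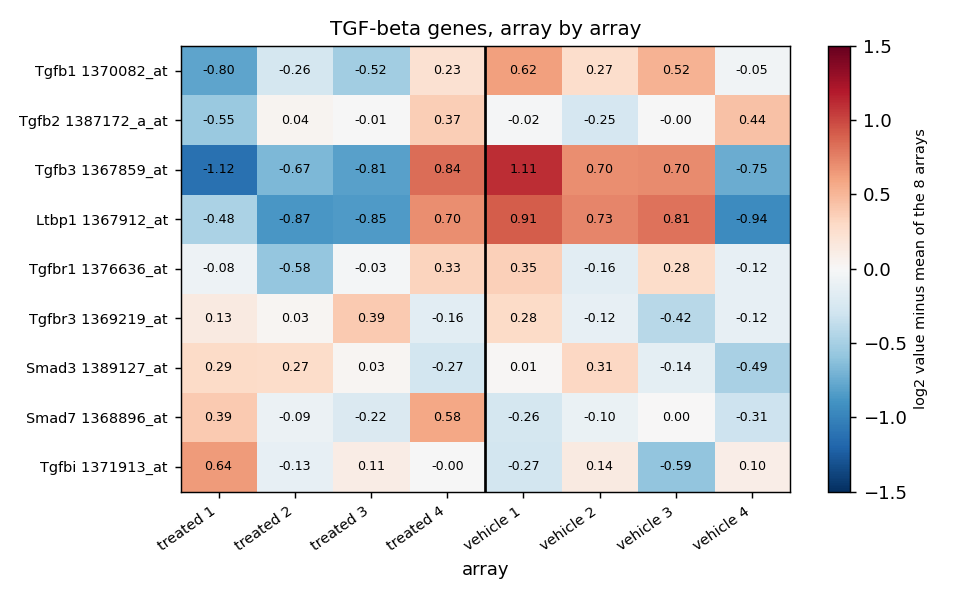
Heat map of the same 9 probe sets (rows) on the 8 arrays (columns), as the log2 value minus the mean of the 8 arrays, with treated arrays left of the black line and vehicle arrays right of it. Tgfb1, Tgfb3 and Ltbp1 were above their mean on treated 4 and vehicle 1 to 3 and below it on treated 1 to 3 and vehicle 4, and Tgfbi was highest on treated 1 and lowest on vehicle 3.

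The stretches around the transcription starts of Tgfb1, Tgfb3 and Ltbp1 are shown because these 3 members had the largest differences and the same high and low arrays. Each runs 5′ to 3′ on the gene's strand from 250 bases before to 50 after the start (RefSeq, build GRCr8), at chr1:90324062-90324361 on the plus strand for Tgfb1, chr6:111456897-111457196 on the minus strand for Tgfb3 and chr6:26177252-26177551 on the minus strand for Ltbp1. Capitals mark matches to the motifs named after them.
Tgfb1: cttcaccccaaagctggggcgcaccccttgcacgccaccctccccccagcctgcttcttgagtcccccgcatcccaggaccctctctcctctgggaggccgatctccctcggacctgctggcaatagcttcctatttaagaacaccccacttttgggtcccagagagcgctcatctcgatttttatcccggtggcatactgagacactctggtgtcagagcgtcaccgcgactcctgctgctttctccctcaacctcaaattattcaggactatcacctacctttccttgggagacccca
Tgfb3: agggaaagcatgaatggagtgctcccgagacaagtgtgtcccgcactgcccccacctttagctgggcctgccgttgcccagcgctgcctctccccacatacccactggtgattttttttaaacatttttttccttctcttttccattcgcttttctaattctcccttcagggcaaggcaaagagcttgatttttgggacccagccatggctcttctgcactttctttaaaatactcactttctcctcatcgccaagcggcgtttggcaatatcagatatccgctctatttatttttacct
Ltbp1: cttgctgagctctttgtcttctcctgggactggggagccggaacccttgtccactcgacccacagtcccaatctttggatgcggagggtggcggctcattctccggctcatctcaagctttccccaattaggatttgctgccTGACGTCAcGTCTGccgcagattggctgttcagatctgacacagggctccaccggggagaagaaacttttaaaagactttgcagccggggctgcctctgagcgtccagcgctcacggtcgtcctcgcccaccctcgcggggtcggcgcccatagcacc

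The motifs were searched on both strands in 33469 rat promoters of this length. Ltbp1 held 1 cyclic AMP response element, TGACGTCA, 108 bases before the start, which 1.83% of promoters hold, and 1 SMAD core, CAGAC, which 50.1% hold. The 2 matches do not overlap. The Tgfb1 and Tgfb3 windows held neither of these, nor the palindromic SMAD element GTCTAGAC (0.197% of promoters), the AP-1 site TGANTCA (7.33%), the GC box GGGCGG (33.1%) or the TATA box TATAAA (14.2%). A match describes letters only.

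The third ligand gave no such difference. Tgfb2 has 2 probe sets, and the brighter (1387172_a_at) stood at 5.53, 6.12, 6.07 and 6.45 in treated livers, against 6.06, 5.83, 6.08 and 6.52 in vehicle livers. The groups covered nearly the same range, with treated 1 the lowest and vehicle 4 the highest array. Its difference was −0.08 (95% interval −0.56 to 0.40), and that of the dimmer probe set (1388011_a_at) was 0.16 (−0.14 to 0.45), or 0.062 without vehicle 3.

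Neither receptor differed beyond its spread. Tgfbr1, the type I receptor kinase that phosphorylates Smad2 and Smad3, stood at 9.80, 9.31, 9.86 and 10.22 in treated livers, against 10.23, 9.73, 10.16 and 9.76 in vehicle livers (1376636_at). Treated 2 was the lowest array, and the difference of −0.18 (95% interval −0.64 to 0.29) was −0.01 without it and −0.32 without treated 4. The other Tgfbr1 probe set (1369504_at) was far dimmer, between 4.01 and 4.41 on all arrays, and differed by 0.08 (−0.17 to 0.32).

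Tgfbr3, or betaglycan, is a co-receptor that presents ligand to the signalling receptors. Its probe sets stood at 5.29, 5.18, 5.55 and 4.999 in treated livers, against 5.44, 5.03, 4.74 and 5.03 in vehicle livers (1369219_at), and at 5.19, 4.85, 5.03 and 4.66 against 4.66, 5.04, 4.83 and 5.37 (1387484_at). They did not rank the arrays alike: vehicle 1 was among the highest on the first and shared the lowest place on the second. Their differences were 0.19 (95% interval −0.20 to 0.59) and −0.04 (−0.44 to 0.36). The first was 0.086 without vehicle 3 and 0.32 without vehicle 1.

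**Figure D3:**
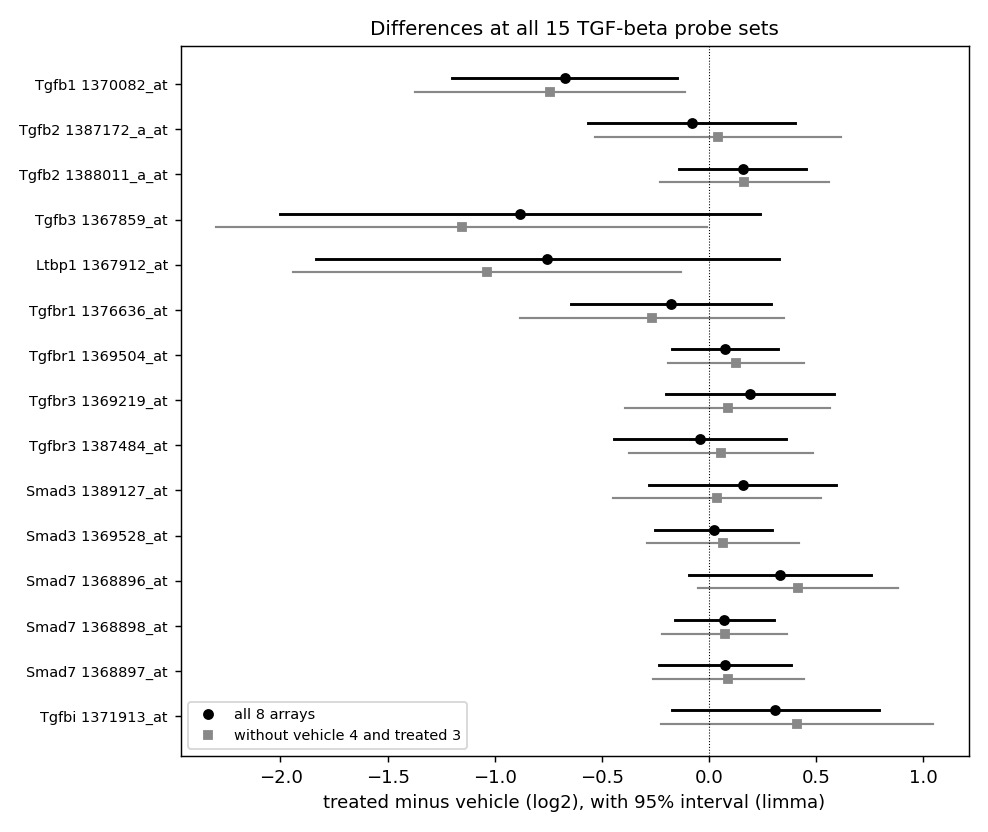
Treated minus vehicle (log2, horizontal axis) at all 15 member probe sets, with 95% intervals from limma. Black circles are all 8 arrays and grey squares leave out vehicle 4 and treated 3; over all 8 arrays only the Tgfb1 interval excludes 0, and without the pair those of Tgfb1, Tgfb3 and Ltbp1 do.

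Smad3, the receptor-activated transducer most tied to collagen transcription, was measured by a brighter and a dim probe set. The brighter (1389127_at) stood at 6.28, 6.26, 6.02 and 5.72 in treated livers, against 6.004, 6.30, 5.85 and 5.50 in vehicle livers. The ranges nearly coincided, with vehicle 4 the lowest array (difference 0.16, 95% interval −0.28 to 0.60). Single arrays moved this difference, to 0.021 without vehicle 4 and 0.29 without vehicle 2. The dimmer (1369528_at) was at or below the 25th percentile of its array on 5 of 8 arrays and averaged 3.78 ± 0.19 in treated and 3.76 ± 0.08 in vehicle livers.

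Smad7, the inhibitory SMAD that TGF-beta itself induces, had a higher mean in treated livers on its brightest probe set. That probe set (1368896_at) stood at 6.88, 6.4015, 6.27 and 7.08 in treated livers, against 6.23, 6.39, 6.496 and 6.19 in vehicle livers. Treated 1 and treated 4 were above every vehicle array, and treated 2 and treated 3 were inside the vehicle range. The difference was 0.33 (95% interval −0.09 to 0.76, 1.26-fold, limma adjusted p = 0.979), and 0.19 without treated 4. Its other probe sets were dim and differed by 0.07 (1368898_at) and 0.07 (1368897_at), the second of them at or below the 25th percentile on all 8 arrays.

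Tgfbi, a secreted matrix protein named for its induction by TGF-beta, had a higher mean in treated livers, where that of Tgfb1 was lower, and passed no test. It stood at 11.19, 10.43, 10.67 and 10.55 in treated livers, against 10.28, 10.70, 9.97 and 10.66 in vehicle livers (1371913_at). Treated 1, where Tgfb1 was lowest, was the highest, and vehicle 3 the lowest. The means were 10.71 ± 0.34 in treated and 10.40 ± 0.34 in vehicle livers (difference 0.31, 95% interval −0.17 to 0.80, limma adjusted p = 0.979). Without treated 1 the difference was 0.15, and without vehicle 3 it was 0.17.

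Genes with the pattern most like a member were sought by Pearson's r over 7 points, with the near copies averaged into 1, among 8495 genes with a mean log2 value above 6. Closest to Tgfb1 were Kctd12 (r = 0.991), Hpcal1, Rapgef5, Rcsd1 and Atp10d (r = 0.988). Closest to Tgfb3 were Rasa1 (r = 0.992), Bgn, Casp1, Pkia and Ms4a7 (r = 0.988). Closest to Tgfbi were Dhcr7 (r = 0.993), Hpn, Sema4g, C4bpb and Ttc7a (r = 0.986). All 5 had higher means in treated livers, and the 10 nearest Tgfb1 and Tgfb3 had lower ones. These directions follow largely from choosing the genes by likeness on the same arrays, so they are no separate result. With so few points and so many genes, r values of this size describe these arrays only.

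Around the members, the genes listed under latency and activation of the ligand leaned lower in treated livers. Of 12 measured genes of latency and activation 11 had a lower mean, with a median difference of −0.40, where 48.4% of all 14217 genes had a lower mean and their median was 0.01. At an unadjusted p under 0.05, 3 were lower and 1 higher, against 2.8% of all genes lower and 1.95% higher, and 0 passed after adjustment (background 0%). The mean level of this list by array lay between 7.19 and 7.81 in treated and between 7.33 and 8.16 in vehicle livers. The groups thus overlapped, and genes of a list measured on the same arrays are not replicates. Nrros, which holds latent TGF-beta on macrophages, stood at 6.47, 6.97, 6.83 and 7.11 in treated livers, against 7.54, 7.55, 7.81 and 6.86 in vehicle livers. Vehicle 4 was again inside the treated range and the difference was −0.60 (95% interval −1.09 to −0.11). The microfibril protein Fbn1 differed by −0.80 (−1.55 to −0.04) and the fibrillin-binding Ltbp2 by −0.68 (−1.30 to −0.06), or −0.41 without vehicle 1. The higher gene was Furin, the protease that cuts the propeptide from the ligand, named here after its value was seen (0.43, 0.02 to 0.84, and 0.27 without treated 1).

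Receptors, SMADs and SMAD regulators outside the 9 members had medians near 0, with single genes further out. Of 8 receptors and co-receptors 4 were lower and 4 higher, with a median of 0.03, and none had an unadjusted p under 0.05. The endothelial type I receptor Acvrl1 differed by −0.43 (95% interval −1.14 to 0.29). It was −0.74 without vehicle 4, −0.26 without vehicle 1 and −0.68 (−1.24 to −0.12) without the near copies. The co-receptor Eng differed by −0.07 (−0.34 to 0.20), and the activin receptors Acvr2a and Acvr2b by 0.17 (0.11 without treated 1) and 0.18. The 6 SMADs had a median of 0.04, with 2 lower and 4 higher, and their differences ran from −0.11 for Smad4, the common partner, to 0.13 for the inhibitory Smad6. Smad2, the other TGF-beta-activated SMAD, differed by 0.08 and Smad9, of the bone morphogenetic protein branch, by 0.11. With 1 array left out, the differences of these 4 SMADs stayed between −0.28 and 0.26. Among 14 SMAD regulators 9 were lower and 5 higher, with a median of −0.06. Pmepa1, a TGF-beta-induced inhibitor of the pathway, differed by −0.63 (−1.48 to 0.23). It was −0.98 without vehicle 4, −0.39 without vehicle 3 and −0.88 (−1.59 to −0.16) without the near copies. Ppm1a, a SMAD phosphatase, differed by 0.34 (−0.01 to 0.69) and the corepressor Tgif2 by 0.30 (−0.03 to 0.62).

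Genes that TGF-beta is known to induce were lower in mean in 20 of 23 cases, with a median difference of −0.41. At an unadjusted p under 0.05, 5 were lower and 1 higher, against 2.8% of all genes lower and 1.95% higher, and 0 passed after adjustment (background 0%). The mean level of this list by array lay between 7.68 and 8.53 in treated and between 8.31 and 8.83 in vehicle livers, so here too the groups overlapped. Tgfb1i1, a focal adhesion adaptor, was the gene of this list without overlap, at 6.54, 6.69, 6.85 and 6.85 in treated livers, against 7.11, 6.99, 7.18 and 6.99 in vehicle livers (difference −0.33, 95% interval −0.59 to −0.08). Absence of overlap in the lower direction was found for 0.626% of all genes. The contractile genes Acta2 and Tagln differed by −0.67 (−1.15 to −0.18) and −1.08 (−1.97 to −0.18).

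Col1a1, the main fibrillar collagen chain, differed by −1.28 (95% interval −2.60 to 0.04). Ccn2, a matricellular growth factor, stood at 7.51, 10.79, 8.69 and 10.0005 in treated livers, against 10.55, 10.46, 10.73 and 8.70 in vehicle livers. Treated 2 was the highest of all 8 arrays and treated 1 the lowest, and the difference of −0.86 was −0.28 without treated 1 and −1.38 without treated 2. The remaining lower genes at this p were Postn (−0.69) and Tsc22d1 (−0.41), named after their values were seen. The 3 genes of this list with a higher mean, also named afterwards, were Id1 (0.82), Id2 (0.68) and Id3 (0.52), inhibitors of helix-loop-helix factors that TGF-beta induces or represses depending on the cell. The Id1 difference was 0.46 without vehicle 1, and that of Id2 was 0.44 without treated 2.

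**Figure D4:**
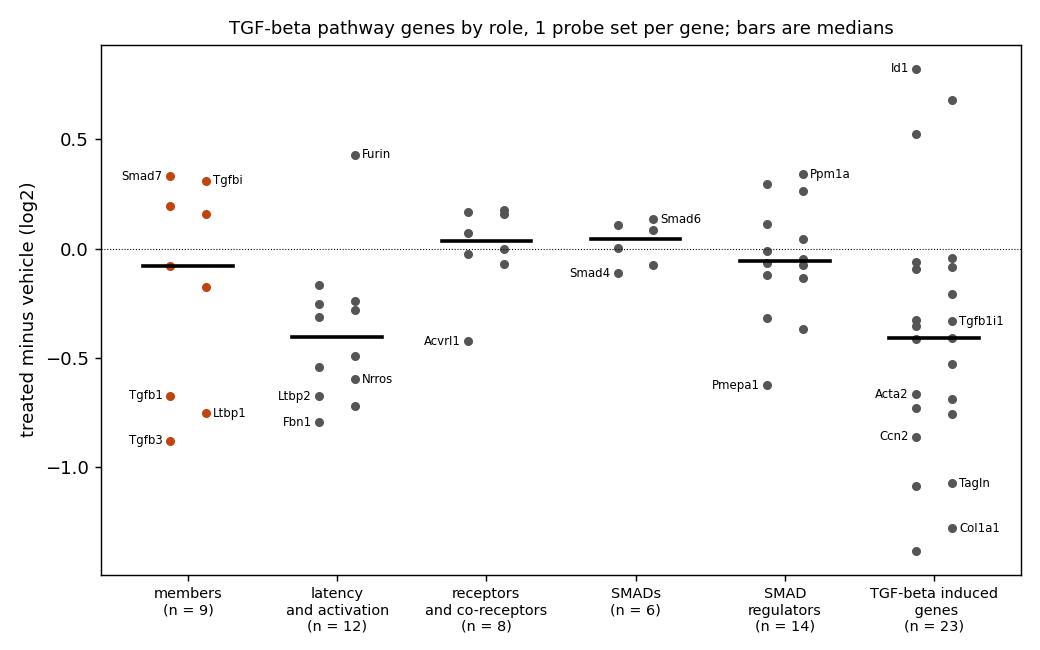
Treated minus vehicle (log2, vertical axis) for each measured gene by role in the pathway, 1 probe set per gene, with the 9 members in red and the bars at the medians. Latency genes and TGF-beta-induced genes lie mostly below 0, with medians of −0.40 and −0.41, and receptors and SMADs near 0, with medians of 0.03 and 0.04.

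Without the near copies the latency list had 11 of 12 genes lower (median −0.51) and the TGF-beta-induced list 20 of 23 (median −0.50), a count added after seeing the data. Leaving out arrays of nearly equal values from opposite groups largely fixes these signs and enlarges the medians, so they are no separate result. Without this pair 4 latency genes and 9 TGF-beta-induced genes were lower at an unadjusted p under 0.05, where 5.24% of all genes were. In the higher direction it was 1 latency gene and 2 TGF-beta-induced genes, where 3.32% of all genes were. Among receptors 1 was lower, Acvrl1, and 1 higher, Bambi, a decoy receptor named after its value was seen (0.39, 95% interval 0.08 to 0.70, against 0.16 over all 8 arrays). Among SMAD regulators 1 was lower, Pmepa1, and 1 higher, Ppm1a, and among SMADs 0 were. None of these genes passed after adjustment.

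Most markers of several cell types that make or receive TGF-beta also had lower means. Endothelial markers had lower means in treated livers in 13 of 13 cases (median −0.56), stellate cell and myofibroblast markers in 13 of 17 (median −0.43) and macrophage markers in 10 of 13 (median −0.57). Named after their values were seen, the 4 higher stellate markers were Lrat (0.26), Rgs5 (0.54), Lhx2 (0.41) and Colec11 (0.23). The 3 higher macrophage markers were Cd14 (0.88), Cd163 (0.18) and Cd5l (0.16). The stellate list shares 2 genes, Acta2 and Tagln, with the TGF-beta-induced list, so these count in both. Mast cell markers were lower in 9 of 9 (median −0.70) and T and natural killer cell markers in 13 of 14 (median −0.19). Platelet markers were lower in 1 of 6 (median 0.11), bile duct markers in 6 of 6 (median −0.31) and hepatocyte markers in 5 of 9 (median −0.02).

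Without the near copies the medians were −0.95 for mast cell, −0.74 for endothelial, −0.71 for macrophage and −0.57 for stellate markers. Leaving out the near copies largely fixed the sign of these medians and enlarged them, so they too are no separate result. At an unadjusted p under 0.05, 7 of 9 mast cell and 10 of 13 endothelial markers were lower there, where 5.24% of all genes were. So were 4 of 17 stellate, 4 of 13 macrophage and 6 of 14 T and natural killer cell markers. It was 1 of 6 for bile duct, 0 of 6 for platelet and 0 of 9 for hepatocyte markers. In the higher direction it was 2 stellate markers and 0 on the other marker lists, where 3.32% of all genes were. All 3 probe sets that passed after adjustment in that comparison were markers on these lists, named after their values were seen, and 0.0211% of all genes did. The lists were chosen with earlier results of these data known, so this match is no separate result. The 3 were the mast cell proteases Cpa3 (difference −4.11, limma adjusted p = 0.0147) and Cma1 (−1.88, adjusted p = 0.0388) together with Cldn5, a claudin of endothelial junctions (−2.26, adjusted p = 0.0388). Over all 8 arrays these 3 differed by −3.07, −1.35 and −1.76 (limma adjusted p = 0.979 each).

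By array, the mean level of the endothelial list lay between 6.69 and 6.84 in treated livers and between 6.73 and 7.85 in vehicle livers, where vehicle 4 was the lowest. The stellate list lay between 6.75 and 7.396 in treated and between 7.10 and 7.61 in vehicle livers, and the macrophage list between 7.72 and 8.87 and between 8.52 and 9.17. A mean at or below the average of the arrays' 25th percentiles was found for 1 of 17 stellate, 2 of 9 mast cell and 3 of 14 T and natural killer cell markers. Array by array, Cpa3 was at or below the 25th percentile on 3 of 8 arrays, Cma1 on 5 and Cldn5 on 1. The part of cell content in the Tgfb1, Tgfb3 and Ltbp1 differences was not tested.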

How the data were processed

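Per the labels' protocols, total RNA of frozen liver was extracted with Trizol, cleaned with RNeasy and made into biotinylated cRNA from an oligo(dT) primer, so signal depends on distance from the transcript's 3′ end. Per the submitters' processing notes, the authors processed the arrays with affy and RMA, with no version or setting stated. The deposited values are log2 intensities and were used as deposited for 8 arrays. Tests ran on 31042 probe sets, without the 57 controls. Of these 20826 had 1 gene symbol in the platform annotation, 436 several and 9780 none listed. The number of arrays limits precision, since intensities carry no counts.

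Treated minus vehicle was fitted with limma 3.58.1 (R 4.3.3, lmFit and eBayes, 6 residual degrees of freedom), with Benjamini-Hochberg adjustment over all 31042 probe sets, and the procedure was tested on simulated data. The design calls the livers those of 4 rats a group, yet 2 arrays are near copies, so p-values measure the spread between these samples, part of which may be technical. In list counts each of 14217 genes was represented by its probe set with the highest mean. Every member probe set is named, with the 3 genes of smallest unadjusted p in each of 5 pathway lists and fixed additions (Ccn2, Col1a1, Acta2, Eng, Acvrl1, Smad2, Smad4). Thbs1, also fixed, was not analysed here. The members, lists, motifs and alternatives were chosen with earlier results of these data known. Of the 15 member probe sets 6 had a mean log2 value above 6. Shared replicate numbers did not pair the arrays.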

Additional observations from a re-analysis of the deposited data

Results flagged for a closer look

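In groups of 4 arrays, a value was looked at again when its gap to the nearest other array, divided by the group's range, exceeded Dixon's critical value. Chance flags about 1 in 20 groups, and 6 of 68 groups were flagged. Ltbp1 was 7.28 on vehicle 4, against 8.95 to 9.13 on the other vehicle arrays. Ccn2 was 8.70 on vehicle 4, against 10.46 to 10.73. Smad4 was 8.10 on treated 3, against 8.67 to 8.73 on the other treated arrays, and 8.17 on vehicle 4, against 8.80 to 8.89 on the other vehicle arrays. These 4 values all stand on the near-identical arrays treated 3 and vehicle 4. The dimmer Tgfb2 probe set (1388011_a_at) was 4.76 on treated 1, against 5.03 to 5.08, and 4.53 on vehicle 3, against 4.90 to 4.93.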

How the results depend on the processing

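Over all probe sets limma called 0 at an adjusted p of 0.05 (1220 at an unadjusted p under 0.05). It called 3 without vehicle 4 and treated 3 (Cpa3, Cma1 and Cldn5), and 0 to 11 with 1 array left out, the 11 without vehicle 4. It called 0 under the other settings, which were quantile normalization, median centring, a mean log2 value above 6, trend and robust variances, unmoderated variances, the replicate block and the spike-in set block. The 34 member and rule-named probe sets, and the 6 genes of the latency and TGF-beta-induced lists named afterwards, were run under these settings and none passed after adjustment. Probe sets with a mean log2 value of 6 or less, Tgfb1 among them, were not in the setting with that filter. Without vehicle 4 and treated 3 the difference turned to 0.043 for Tgfb2 (1387172_a_at) and 0.056 for Tgfbr3 (1387484_at), and that of Tgfbr3 was 0.011 after median centring. The cause was not tested. With the mean of a gene's probe sets, Tgfb2 differed by 0.039, Tgfbr3 by 0.076 and Tgfbr1 by −0.050, each with a sign opposite to that of 1 of its probe sets. With 1 array left out, differences ran from −0.22 to 0.091 for Tgfb2 (1387172_a_at), −0.15 to 0.089 for Tgfbr3 (1387484_at), −0.055 to 0.089 for Smad3 (1369528_at), −0.0016 to 0.14 for Smad7 (1368897_at) and −0.28 to 0.038 for Smad4. They ran from −0.86 to −0.52 for Tgfb1, −1.31 to −0.65 for Tgfb3 and −1.19 to −0.58 for Ltbp1.

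Deviations of same-numbered arrays from their group means correlated at −0.11, 0.04, −0.12 and −0.62, so the numbers give no pairing. With the replicate block the Tgfb1 difference was −0.67 (SE 0.29, limma adjusted p = 0.99993) and 0 probe sets were called. Brightness limits Smad3 (1369528_at) and Smad7 (1368897_at), which lay at or below the 25th percentile on 5 and 8 arrays. Postn lay there on 3 arrays and Acvrl1 on 1, with mean log2 values of 4.10 and 4.40. Smad9, Tgif2 and Acvr2b had means of 4.17, 4.46 and 4.92, also under the filter of 6. Among the members, Tgfb1 (5.92) and the brighter probe sets of Smad3 (5.99) and Tgfbr3 (5.16) were under it as well.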
